A study of Homo sapiens and Mus musculus with 21 samples.

Results

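The comparison set SW620 Mock tumours against SW480 Mock tumours, in human transcripts only. It used 6 of the 21 samples of the series, chosen by their labels and not by a measurement: 3 SW620 Mock and 3 SW480 Mock xenografts. SW620 is an established colon carcinoma line from a lymph node metastasis, and SW480 is a line from the primary tumour of the same patient. Each origin is thus represented by a single line. Before injection both lines had gone through a mock lentiviral transduction, which served as the control for a construct carrying dnLEF1, a LEF1 that acts as a dominant negative on Wnt-driven transcription. In every xenograft group 500000 cells were injected into the caecum wall of NSG mice, a strain known to lack mature lymphocytes and natural killer cells, and the caecum was taken on day 28. Each library was made from a piece of frozen caecum and therefore holds human and mouse RNA. The 3 SW620 dnLEF1 and 3 SW480 dnLEF1 tumours, grown and sampled in the same way, gave the same comparison of lines in libraries not used for the Mock contrast. SW620 Cas9 tumours (a mock CRISPR/Cas9 transfection with sorting) and SW620 LRP6KO tumours (CRISPR aimed at LRP6, a co-receptor for Wnt ligands, followed by sorting) were used only for levels and for an alternative fit. Unless dnLEF1 is named, SW620 and SW480 tumours are the Mock groups.

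Colon carcinomas usually start with a loss of APC, which keeps beta-catenin and its TCF/LEF partners active at Wnt target genes, and both lines are known to carry truncated APC. Spread to lymph nodes has been linked to loss of cell junctions, a shift from epithelial to mesenchymal genes, matrix proteases, chemokines and growth factor receptors such as MET. Growing both lines in the wall of the caecum puts them in a site like that of the primary tumour. Levels are TPM, transcript abundances scaled to a sum of 1000000 per library, and differences are SW620 minus SW480 on the log2(TPM + 1) scale, which understates the change of genes at low levels.

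TPM keep no sequencing depth, so no counting error can be given. The number of human genes above 0 was 26388 to 29547 in SW620 libraries and 24665 to 34709 in SW480 libraries, with the highest count in SW480 replicate 2. Nuclear protein-coding genes held 81.5% to 82.7% of TPM in SW620 libraries and 71.2% to 76.4% in SW480 libraries, and ribosomal RNA 0.703% to 1.39% in SW620 and 1.35% to 6.5% in SW480 libraries. Replicates had a median SD per gene of 0.234 log2 units for SW620 and 0.375 for SW480, and the mean correlation with the other libraries of the group was 0.958 to 0.961 in SW620 and 0.92 to 0.93 in SW480. The defining carcinoma markers summed to 15150 to 17070 TPM in SW620 and 17340 to 21250 TPM in SW480 libraries. The epithelial adhesion gene EPCAM stood at 499.5, 360.3 and 345 TPM in SW620 tumours and 455, 524 and 450.2 TPM in SW480 tumours. The intestinal markers CDH17, GPA33 and CEACAM5 were too low to test in these libraries, and LGALS4 stood at 1.39, 0.49 and 0.3 TPM in SW620 tumours and 1.52, 3.84 and 1.32 TPM in SW480 tumours. Markers of fibroblasts, vessels, leukocytes and muscle summed to 28.26 to 45.16 TPM in SW620 and 32.36 to 53.85 TPM in SW480 libraries, with 2 to 5 of the 24 markers at 0 in SW620 and 3 to 10 in SW480. Of these, LUM, a fibroblast proteoglycan, was at 10.4, 7.63 and 7.73 TPM in SW620 tumours and listed at 0 in the 3 SW480 libraries, while DES, a muscle filament, was lower in SW620 (2.69, 2.5 and 2.85 TPM in SW620 tumours and 11.8, 11.8 and 10.4 TPM in SW480 tumours). CD14 was also lower (0.66, 0.53 and 0.94 TPM in SW620 tumours and 3.17, 2.06 and 4.06 TPM in SW480 tumours). Of 13 stroma markers tested, these 3 were called, 1 higher (7.69%) and 2 lower (15.4%). These shares lay near the 10.6% and 12.1% of all genes. The higher ones were 0 without any SW620 replicate, 2 without SW480 replicate 2 and 3 with median-ratio scaling. The lower ones were 1 without SW480 replicate 1 or 2 or any SW620 replicate. LUM without any SW620 replicate, and CD14 without any SW480 replicate, no longer reached 1 TPM in 3 libraries and were not tested. The part of other cells or of mouse reads in the results was not tested. In bulk tissue, fewer cells of a type and less RNA per cell cannot be told apart.

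Of 58336 human genes, 18151 reached at least 1 TPM in at least 3 of the 6 libraries and were tested with limma at an adjusted p of 0.05. The lines differed in 4117 genes (22.7%), of which 1917 were higher in SW620 (10.6%) and 2200 lower (12.1%). At least 1 log2 unit separated 1097 higher and 1739 lower genes, and at least 4 units 35 and 77. The 3 values of each line did not overlap in 7513 genes (41.4%), and 1 called gene overlapped. The median difference over all genes was -0.12, and median-ratio scaling of the libraries moved it to 0.00, a shift of 0.12. The shares of higher and lower calls therefore depend on the scaling: 46.6% of calls were higher in SW620 as deposited, 54.7% with median-ratio scaling (2274 higher, 1885 lower), 36.0% with TPM rescaled to nuclear protein-coding genes (1558 and 2775) and 57.9% without SW480 replicate 2 (1871 and 1363). The count of calls was 2210, 2259 or 2299 without SW620 replicate 1, 2 or 3 and 3055, 3234 or 3589 without SW480 replicate 1, 2 or 3. The filter still asked for 3 libraries there. A gene under 1 TPM throughout 1 line was therefore not tested when a library of the other line was left out. The labels do not state that replicates came from separate animals, so the p-values measure the spread between these samples. The fit takes 1 spread per gene for both lines, although SW480 replicates spread more than SW620 replicates. The share of false calls may therefore be above the 0.05 of the threshold.

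The genes most raised in SW620 tumours over SW480 tumours included a mucus peptide, actin-binding proteins, chemokines and a steroid-metabolising enzyme. TFF3, a trefoil peptide secreted with intestinal mucus (ENSG00000160180.15, chromosome 21, 42311667 to 42315651 in GRCh38), had 490.4, 523 and 462 TPM in SW620 tumours, against 8.44, 0.85 and 0 TPM in SW480 tumours. All SW620 values lay above all SW480 values, and SW480 replicate 1 was the highest of its group. The difference was 7.57 log2 units (SE 0.71, limma adjusted p 0.000409). CXCL6, a neutrophil-attracting chemokine (ENSG00000124875.9, chromosome 4, 73836497 to 73849064), had 116, 98.97 and 109 TPM in SW620 and 0.79, 0.26 and 0.23 TPM in SW480 tumours, a difference of 6.27 (SE 0.23, limma adjusted p 9.96e-06). The groups were far apart, with no SW480 library reaching 1 TPM. LCP1, the actin-bundling protein L-plastin of leukocytes and many carcinomas (ENSG00000136167.13, chromosome 13, 46125920 to 46211871), followed with 89.96, 72.9 and 80.5 TPM in SW620 tumours and 0.42, 0.8 and 0 TPM in SW480 tumours, and CNN3, an actin-binding calponin, with 231, 200.2 and 215 TPM in SW620 tumours and 4.58, 3.58 and 1.62 TPM in SW480 tumours. MFNG, a glycosyltransferase that modifies Notch receptors, had 174, 188 and 182 TPM in SW620 tumours and 6.07, 1.49 and 0.8 TPM in SW480 tumours. ARHGDIB, an inhibitor of small GTPase cycling, had 65.2, 60.9 and 64.8 TPM in SW620 tumours and 1.43, 0.92 and 0.4 TPM in SW480 tumours. In these 4 genes the SW620 values were close together and every SW480 library was low, with differences of 5.90, 5.73, 5.85 and 5.11.

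In the other 6 of the 12 largest positive differences the groups did not overlap either. S100P, a calcium-binding protein, had 109, 122 and 134 TPM in SW620 tumours and 6.22, 1.3 and 2.22 TPM in SW480 tumours (difference 5.02), and AKR1C3, an aldo-keto reductase of steroid and prostaglandin metabolism, had 96.8, 87.5 and 71.03 TPM in SW620 tumours and 4.76, 1.75 and 1.01 TPM in SW480 tumours (difference 4.75). CXCL8, the chemokine interleukin 8, had 121, 90.4 and 109 TPM in SW620 tumours and 3.37, 2.67 and 3.04 TPM in SW480 tumours (difference 4.74). No SW480 library came near an SW620 library in these genes. KRT40, a hair keratin, and MT1G, a metallothionein, differed by 4.98 and 5.03. APOC2, a lipoprotein cofactor, had 149.7, 134 and 143 TPM in SW620 tumours and 18.1, 1.72 and 1.45 TPM in SW480 tumours, with SW480 replicate 1 apart from its group and a difference of 4.83. APOC2 overlaps the read-through gene APOC4-APOC2, and MT1G and AKR1C3 have near-identical relatives, so reads may be split differently between copies there.

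Larger still were the differences of genes low in SW620. IFITM1, an interferon-induced membrane protein that blocks virus entry (ENSG00000185885.15, chromosome 11, 313506 to 315272), had 1.99, 0.57 and 1.31 TPM in SW620 tumours, against 1232, 1075 and 1364 TPM in SW480 tumours. The difference was -9.11 log2 units (SE 0.24, limma adjusted p 4.97e-06), and no SW620 library reached 2 TPM. CST1, a secreted inhibitor of cysteine proteases (ENSG00000170373.8, chromosome 20, 23747553 to 23751268), had 0.72, 0.96 and 2.96 TPM in SW620 tumours and 981, 1214 and 1380.5 TPM in SW480 tumours (difference -8.96). MIA, a small secreted protein named for its inhibition of melanoma cell attachment, had 1.29, 1.25 and 0.5 TPM in SW620 tumours and 570.4, 957 and 1181 TPM in SW480 tumours (difference -8.77). DKK4, a secreted antagonist of the Wnt co-receptors, had 0.87, 2.1 and 1.07 TPM in SW620 tumours and 1699, 564 and 766 TPM in SW480 tumours (difference -8.62). KRT5, the basal epithelial keratin (ENSG00000186081.11, chromosome 12, 52514575 to 52520687), had 5.36, 3.68 and 4.09 TPM in SW620 and 1827, 2083 and 2021 TPM in SW480 tumours. It combined a high level with close replicates, and its difference of -8.53 (SE 0.16) had the smallest limma adjusted p of the genes named, 5.11e-07.

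The next largest negative differences were KRT75, a keratin of the hair follicle (difference -7.05), and CD74, the invariant chain of HLA class II (2.68, 1.26 and 1.58 TPM in SW620 tumours and 473, 243 and 413 TPM in SW480 tumours, difference -7.03). ZAP70, a kinase known from T cells, was at 0.33, 0.66 and 1.8 TPM in SW620 and 191, 157 and 141 TPM in SW480 tumours. The leukocyte marker PTPRC was too low to test in the same libraries, and CD3E, a T cell marker, was too. RNASE1, a secreted ribonuclease, had 0.44, 0 and 0 TPM in SW620 tumours and 116, 79.6 and 102 TPM in SW480 tumours, and IGFBP3, which binds insulin-like growth factors, had 2.36, 3.18 and 3.87 TPM in SW620 tumours and 399, 392 and 234 TPM in SW480 tumours. TNFRSF6B, a decoy receptor for FAS ligand, and CLDN7, a tight junction claudin, differed by -6.31 and -6.28. In all 12 genes every SW620 library lay below every SW480 library. IFITM1 and CST1 have close relatives on the same chromosome, and MIA and TNFRSF6B overlap the read-through genes MIA-RAB4B and RTEL1-TNFRSF6B, so part of their reads may be assigned either way.

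**Figure D1:**
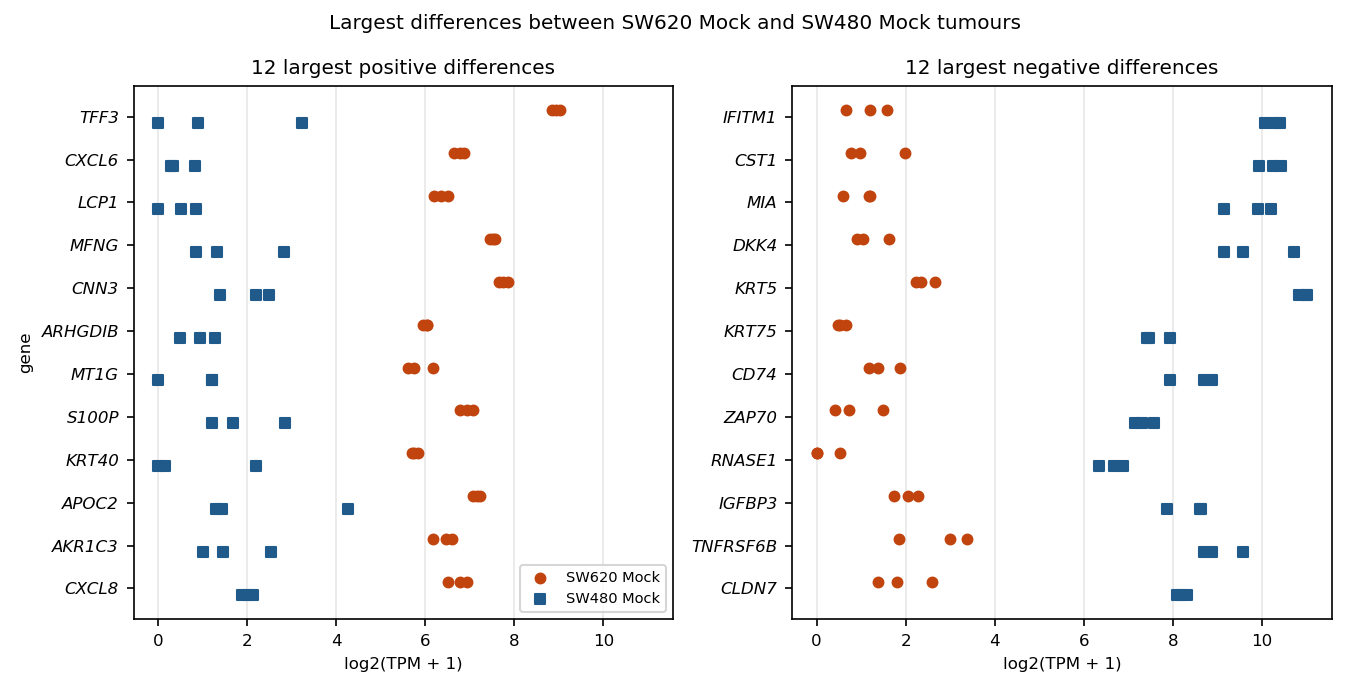
Level of the 24 genes with the largest differences, as log2(TPM + 1), in each library; circles are the 3 SW620 Mock tumours and squares the 3 SW480 Mock tumours. The lines are apart in every gene, and the SW480 values spread most in TFF3, MFNG, KRT40 and APOC2.

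The dnLEF1 tumours gave the same contrast of lines in 6 other libraries. There 6976 of 17680 genes were called (39.5%), 1926 higher in SW620 (10.9%) and 5050 lower (28.6%), with a median difference of -0.3. With median-ratio scaling these were 3706 higher and 3055 lower, so which side holds more genes depends on the scaling there. The count was 4502 without SW480 dnLEF1 replicate 3 and 4248 without SW620 dnLEF1 replicate 2. A total of 2909 genes were called in both contrasts, and 2899 of them had the same direction, 1155 higher and 1744 lower in SW620. That is 70.4% of the Mock calls and 41.6% of the dnLEF1 calls. All 24 genes with the largest Mock differences were called in the same direction in dnLEF1 tumours. Over all groups there were 12 SW620 and 6 SW480 libraries. Every SW620 library lay above every SW480 library in 1176 of the higher calls (61.3%), and below every one in 1561 of the lower calls (71.0%), beside 18.4% of all genes tested being separated either way. These include the Mock libraries that made the calls.

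**Figure D2:**
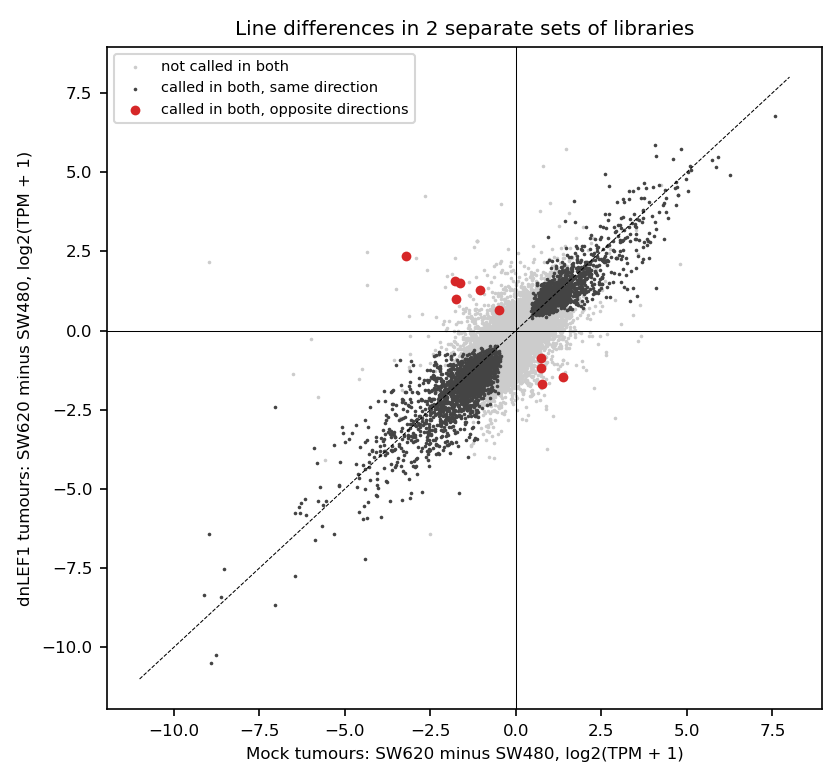
Log2 difference SW620 minus SW480 in dnLEF1 tumours (vertical) against that in Mock tumours (horizontal), for each gene tested in both; dark points are called in both with the same direction, red points in opposite directions, and the dashed line marks equal differences. Of the genes called in both, 2899 have the same direction and 10 opposite directions.

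Some genes were on in one line and near 0 in the other. Protein-coding genes with a mean of at least 10 TPM in one line and under 0.5 TPM in each Mock library of the other numbered 37, of which 7 were on in SW620 and 30 in SW480. This choice uses the contrast itself and is a description. Genes of at least 1 TPM numbered 22213 in SW480 replicate 2, against 16605 to 17766 in SW620 libraries. Whether this bears on the counts of 7 and 30 was not tested. The nearest genes inside and outside the limit were AMIGO2 (highest SW480 value 0.49 TPM) and SMOC2 (0.52 TPM) on the SW620 side, and GPR143 (highest SW620 value 0.48 TPM) and PHLDB2 (0.52 TPM) on the SW480 side. Genes on in SW620 were MKX, a homeobox factor of tendon (25.7, 22.3 and 23.9 TPM in SW620 tumours and 0.09, 0.12 and 0.42 TPM in SW480 tumours), AMIGO2, an adhesion molecule, PEG10, an imprinted gene derived from a retrotransposon (19.2, 16.7 and 21.4 TPM in SW620 tumours and 0, 0.34 and 0 TPM in SW480 tumours), CAVIN2, a coat protein of caveolae, CYTL1, C3orf14 and AC022506.1. AC022506.1 stood at 113, 0 and 15.6 TPM in SW620, so its mean rests on a single library. Among those on in SW480 were the secreted proteins RNASE1, CST5 (0, 0.32 and 0.33 TPM in SW620 tumours and 76.2, 70.9 and 113 TPM in SW480 tumours), EDN3 and SHH, the calcium-binding S100A9 (0, 0 and 0 TPM in SW620 tumours and 87.8, 24.96 and 90.01 TPM in SW480 tumours), the lymph node homing receptor CCR7, the noncanonical Wnt receptor ROR2, the gelatinase MMP9, the class II gene HLA-DRA and the cell cycle gene CCND2. In the libraries not used for the choice, 12 of the 30 met the same limits in every group, as did 2 of the 7, MKX and CAVIN2. CST5 was at 31.3 to 53.1 TPM in SW480 dnLEF1 tumours and at most 0.33 TPM in the 9 other SW620 libraries.

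The 300-base promoters of the genes with the highest levels on each side are given from RefSeq (GRCh38.p14, 250 bases before to 50 after the first listed start) to show how far these promoters differ in CpG content. AC022506.1, with the highest mean on the SW620 side, has no promoter printed. MKX lies at chr10:27745770-27746069 on the minus strand, RNASE1 at chr14:20802795-20803094 on the minus strand and CST5 at chr20:23879699-23879998 on the minus strand. KRT5, at chr12:52520345-52520644 on the minus strand, and KRT75, at chr12:52434322-52434621 on the minus strand, were added after their values were seen, as neighbouring keratins that differed together. Capitals mark CpG dinucleotides, read 5′ to 3′ on the gene's strand.
MKX: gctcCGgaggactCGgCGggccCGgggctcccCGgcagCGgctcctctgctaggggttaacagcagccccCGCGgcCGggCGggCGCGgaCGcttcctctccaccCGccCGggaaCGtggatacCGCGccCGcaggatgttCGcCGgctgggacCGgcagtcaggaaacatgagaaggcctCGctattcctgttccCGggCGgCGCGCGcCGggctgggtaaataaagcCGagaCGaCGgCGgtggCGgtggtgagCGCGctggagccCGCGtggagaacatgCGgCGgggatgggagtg
RNASE1: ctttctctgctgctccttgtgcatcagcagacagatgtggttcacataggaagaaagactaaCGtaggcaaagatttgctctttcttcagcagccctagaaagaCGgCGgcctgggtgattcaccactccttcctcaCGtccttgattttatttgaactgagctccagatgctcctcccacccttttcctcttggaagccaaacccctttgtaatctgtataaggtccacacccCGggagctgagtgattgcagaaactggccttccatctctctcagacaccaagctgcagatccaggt
CST5: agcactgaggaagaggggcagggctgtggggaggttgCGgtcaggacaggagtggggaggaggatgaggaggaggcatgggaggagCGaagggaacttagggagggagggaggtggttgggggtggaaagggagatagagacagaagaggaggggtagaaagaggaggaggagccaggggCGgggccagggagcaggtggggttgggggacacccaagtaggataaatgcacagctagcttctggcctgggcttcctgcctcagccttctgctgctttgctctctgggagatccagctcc
KRT5: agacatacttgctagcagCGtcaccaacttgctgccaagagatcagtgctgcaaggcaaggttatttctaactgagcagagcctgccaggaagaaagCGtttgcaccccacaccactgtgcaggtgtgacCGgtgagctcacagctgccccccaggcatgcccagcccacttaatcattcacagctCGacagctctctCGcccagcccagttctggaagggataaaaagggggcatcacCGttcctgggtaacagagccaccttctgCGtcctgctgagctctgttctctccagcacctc
KRT75: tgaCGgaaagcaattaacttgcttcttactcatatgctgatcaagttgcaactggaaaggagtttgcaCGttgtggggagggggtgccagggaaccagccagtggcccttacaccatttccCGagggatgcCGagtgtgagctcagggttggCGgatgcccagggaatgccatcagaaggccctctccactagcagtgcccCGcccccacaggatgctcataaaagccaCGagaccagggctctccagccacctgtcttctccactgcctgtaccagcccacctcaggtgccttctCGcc

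The MKX window holds 40 CpG (observed over expected 1.03), against 5 in RNASE1 (0.275), 3 in CST5 (0.138), 7 in KRT5 (0.301) and 8 in KRT75 (0.319). Of the genes on in SW480, 19 of 30 matched a promoter, with a median of 7 CpG and 26.3% at an observed over expected ratio of at least 0.6. Of the genes on in SW620, 4 of 7 matched, with a median of 23 CpG and 2 of the 4 at that ratio. Over all protein-coding genes tested, 10609 of 13056 matched, with a median of 26 CpG and 80.6% at that ratio. Among the 24 largest differences, 9 promoters of higher genes had a median of 5 CpG and 10 of lower genes a median of 7, so both directions held CpG-poor promoters. The TCF/LEF core ATCAAAG (searched on both strands, CTTTGAT in reverse) was in 0 of the 19 promoters of genes on in SW480 and 0 of the 4 on in SW620, in those of CXCL8, MIA and ZAP70 among the 19 of the largest differences, and in 1.44% of all 10609. A match in these letters shows no binding, and no match covers only this window.

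Wnt target and feedback genes were split between the lines. Of 25 tested, 9 were higher in SW620 (36.0%) and 8 lower (32.0%), against 10.6% and 12.1% of all genes. The median of the list lay 0.79 above that of all genes. Feedback inhibitors were on both sides, with DKK1 and NKD1 higher and DKK4, AXIN2, APCDD1 and RNF43 lower. LGR5, the stem cell receptor for R-spondins (ENSG00000139292.12, chromosome 12, 71439770 to 71586310), had 9.04, 4.09 and 6.47 TPM in SW620 and 0.24, 0.16 and 0 TPM in SW480 tumours, a difference of 2.68 (SE 0.34, limma adjusted p 0.00155). SOX4, a transcription factor, and BMP4, a growth factor, differed by 3.73 and 3.33. The matricellular gene SMOC2 had 24.6, 13.03 and 15.4 TPM in SW620 tumours and 0.52, 0.37 and 0.36 TPM in SW480 tumours (difference 3.67), but 19.2, 22.5 and 24.6 TPM in SW620 dnLEF1 and 18.1, 26.8 and 32.3 TPM in SW480 dnLEF1 tumours, where the groups overlapped. PHLDA1, TDGF1, DKK1, PROX1 and NKD1 completed the 9, with differences of 1.28 to 2.06.

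Among the lower Wnt targets, AXIN2, the feedback scaffold of the beta-catenin destruction complex (ENSG00000168646.12, chromosome 17, 65528563 to 65561647), had 24.3, 26.1 and 29.7 TPM in SW620 and 48.2, 61.5 and 62.02 TPM in SW480 tumours. The groups did not overlap, and the difference was -1.07 (SE 0.17, limma adjusted p 0.00451). In dnLEF1 tumours it was -0.25 (limma adjusted p 0.435). LEF1 (ENSG00000138795.9, chromosome 4, 108047545 to 108168956) was at 0.3, 0.8 and 0.59 TPM in SW620 tumours and 14.8, 13.3 and 5.09 TPM in SW480 tumours, with a difference of -2.84 (SE 0.41, limma adjusted p 0.00283). SW480 replicate 3 was lowest of its group, still above SW620. CCND1, the G1 cyclin, had 640.4, 583 and 509.6 TPM in SW620 tumours and 2327, 3068 and 2572 TPM in SW480 tumours (difference -2.20). APCDD1, an inhibitor of Wnt at the cell surface, had 3.6, 3.67 and 3.75 TPM in SW620 tumours and 115, 196 and 142 TPM in SW480 tumours (difference -4.99), and CD44, a hyaluronan receptor, had 6.48, 3.56 and 6.22 TPM in SW620 tumours and 115, 95.98 and 63.7 TPM in SW480 tumours (difference -3.84). RNF43, a ligase that removes Frizzled receptors, and TCF7, a partner of beta-catenin, differed by -2.19 and -2.17. MYC (difference 0.68), ASCL2 (0.67), EPHB2 (0.66), EPHB3, NOTUM, SP5, TNFRSF19 and ZNRF3 were not called, and WIF1 was too low to test.

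Noncanonical Wnt genes act without beta-catenin, on cell polarity and movement. Of 20 tested, 7 were lower in SW620 and 2 higher (35.0% and 10.0%), beside 12.1% and 10.6% of all genes. The ligand WNT5A had 0.04, 0 and 0.63 TPM in SW620 tumours and 17.2, 14.5 and 12.2 TPM in SW480 tumours, and its receptor ROR2 had 0.27, 0.1 and 0.1 TPM in SW620 tumours and 9.16, 8.66 and 14.8 TPM in SW480 tumours. Both were near 0 in every SW620 library, with differences of -3.70 and -3.33 (limma adjusted p 0.000243 and 0.00036). WNT5B and the co-receptor PTK7 were lower by less (-2.64 and -1.21), as were FZD6, CELSR2 and CELSR3. CAMK2D (1.48) and MAPK8 (0.73) were higher. The 7 became 4 without SW480 replicate 1 or 2 or SW620 replicate 1 or 2. WNT5A and ROR2 no longer reached 1 TPM in 3 libraries without an SW480 replicate and were not tested there. The 2 became 1 without SW480 replicate 1 or 2 or SW620 replicate 1 or 3 and with TPM rescaled to nuclear protein-coding genes.

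**Figure D3:**
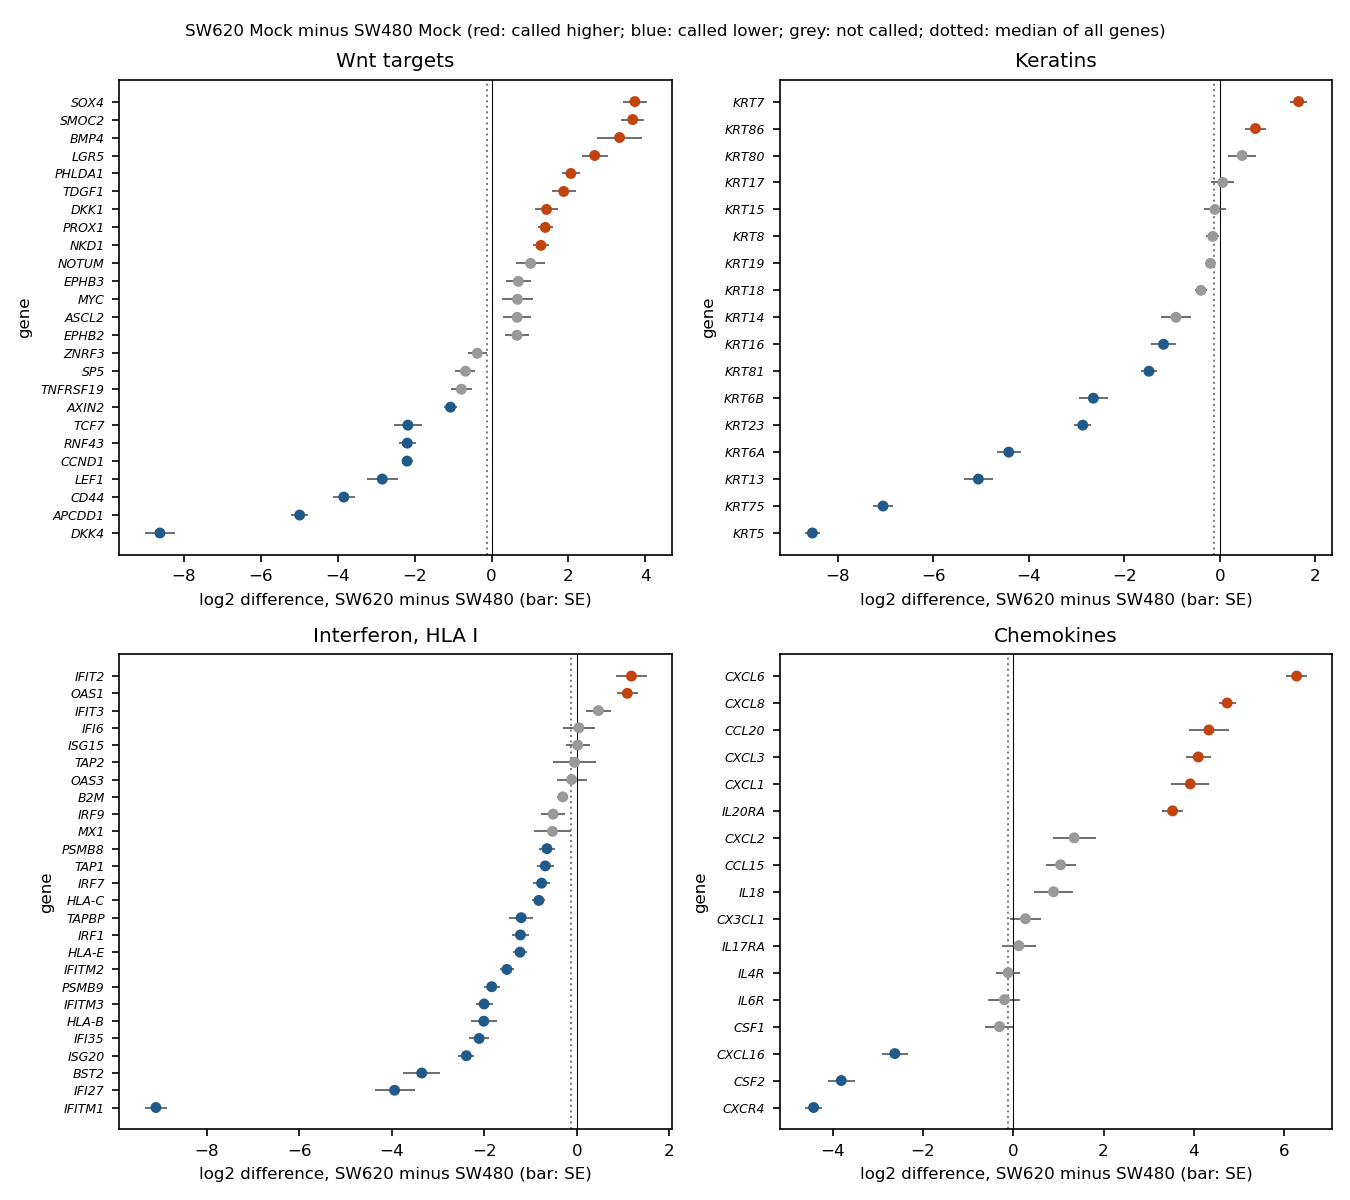
Log2 difference SW620 minus SW480 (Mock) of tested members of 4 gene lists (Wnt targets, keratins, interferon-induced and HLA class I genes, chemokines), each with its standard error; red is called higher, blue called lower, grey not called, and the dotted line is the median of all genes (-0.12). Wnt targets reach from DKK4 at -8.62 to SOX4 at 3.73, and most called keratins and interferon genes lie on the lower side.

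Keratins form the filaments of epithelial cells, and the simple epithelial pair KRT8 and KRT18 with KRT19 is the set usual in colon. KRT8 stood at 6603, 6723 and 6433 TPM in SW620 tumours and 7801, 8214 and 6077 TPM in SW480 tumours and was not called (difference -0.15), nor were KRT18 (-0.40) and KRT19 (-0.20). Of 17 listed keratins tested, 8 were lower in SW620 and 2 higher (47.1% and 11.8%), beside 12.1% and 10.6% of all genes. The list does not hold every keratin. It leaves out KRT40, which was among the 12 largest positive differences, and KRT71 and KRT74, which were on in SW480. Beside KRT5 and KRT75, KRT13 had 1.06, 0.94 and 1.21 TPM in SW620 tumours and 47.5, 106 and 61.8 TPM in SW480 tumours (difference -5.06) and KRT6A had 1.0, 1.68 and 2.07 TPM in SW620 tumours and 59.4, 58.1 and 44.3 TPM in SW480 tumours (difference -4.42), with no overlap. KRT23, KRT6B, KRT81 and KRT16 were lower, with differences of -2.87 to -1.18. KRT7 was higher, with 122, 153 and 127 TPM in SW620 tumours and 41.5, 35.5 and 49.8 TPM in SW480 tumours (difference 1.65), as was KRT86 by less (0.74). These 2 became 1 with TPM rescaled to nuclear protein-coding genes or without any single library but SW480 replicate 1. KRT6A with KRT6B and KRT81 with KRT86 are near-identical pairs, so their shares are uncertain.

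Intestinal identity genes did not move together. CDX2, the homeobox factor of intestinal identity (ENSG00000165556.9, chromosome 13, 27962137 to 27971139), had 1.3, 2.33 and 2.22 TPM in SW620 and 41.4, 46.2 and 34.2 TPM in SW480 tumours, a difference of -3.83 (SE 0.24, limma adjusted p 9.11e-05). All 3 SW620 values were far under the SW480 range. On the other side, TFF3 and AGR2, a disulfide isomerase of mucus-secreting cells (4.99, 6.15 and 6.76 TPM in SW620 tumours and 0, 0.13 and 0 TPM in SW480 tumours, difference 2.73), were higher in SW620. So were the transcription factor KLF5 (22.03, 31.9 and 27.2 TPM in SW620 tumours and 8.49, 7.54 and 8.38 TPM in SW480 tumours) and the microvillus protein VIL1 (125, 118 and 136 TPM in SW620 tumours and 92.2, 82.97 and 63.6 TPM in SW480 tumours, limma adjusted p 0.0257). The adhesion molecule CEACAM1 was lower (-1.55). Of 29 listed genes 14 were too low to test, among them MUC2, CDX1, SLC26A3 and CA1. The count of 5 higher and 2 lower thus covers 15 genes (33.3% and 13.3%), beside 10.6% and 12.1% of all genes. It was 3, 3 and 2 higher without SW620 replicate 1, 2 and 3. There AGR2 no longer reached 1 TPM in 3 libraries and was not tested. VIL1 was tested there and was not called, nor was it with no filter on low values or with a replicate block. The lower genes were 1 without SW480 replicate 1 or any SW620 replicate.

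Junction genes were lower or not called, with 1 exception. Of 24 tested, 7 were lower in SW620 and 1 higher (29.2% and 4.17%), beside 12.1% and 10.6% of all genes. CLDN7 was at 1.59, 2.52 and 4.99 TPM in SW620 tumours and 271, 321 and 290.2 TPM in SW480 tumours, all SW620 values being under 5 TPM. CDH3, the P-cadherin of basal epithelium, had 4.58, 6.07 and 7.69 TPM in SW620 tumours and 52.8, 89.7 and 44.4 TPM in SW480 tumours (difference -3.11), and ST14, the membrane protease matriptase, had 4.15, 6.59 and 7.33 TPM in SW620 tumours and 22.9, 32.3 and 40.95 TPM in SW480 tumours (difference -2.23). CLDN3, CLDN4, TJP3 and ESRP1 were lower, with differences of -1.62 to -0.95. CLDN1 went the other way, with 30.9, 37.1 and 42.6 TPM in SW620 tumours and 6.43, 5.31 and 3.14 TPM in SW480 tumours and a difference of 2.70 (SE 0.27, limma adjusted p 0.000536). CDH1, the E-cadherin of adherens junctions, was at 6.01, 6.95 and 8.94 TPM in SW620 tumours and 7.95, 16.6 and 8.45 TPM in SW480 tumours, so that the groups overlapped and it was not called (difference -0.48, SE 0.32, limma adjusted p 0.332). In dnLEF1 tumours it was lower in SW620 (difference -1.99, limma adjusted p 0.00182), and the difference between these contrasts did not pass the test (limma adjusted p 0.226). With median-ratio scaling a second gene of this list was called higher.

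Of 14 mesenchymal genes tested, 5 were higher in SW620 and 3 lower (35.7% and 21.4%), beside 10.6% and 12.1% of all genes. The factors TWIST1, SNAI2, ZEB2 and the cadherin CDH2 were too low to test. VIM, the mesenchymal filament vimentin (ENSG00000026025.15, chromosome 10, 17228259 to 17237593), had 586, 513 and 560.03 TPM in SW620 and 245, 283 and 238 TPM in SW480 tumours, a difference of 1.11 (SE 0.12, limma adjusted p 0.000813), with no overlap. TPM2, a muscle-type tropomyosin, had 319, 333 and 346 TPM in SW620 tumours and 13.9, 12.4 and 17.4 TPM in SW480 tumours and the largest difference of the list (4.43). S100A4, a calcium-binding protein linked to motility, had 3817, 4280.3 and 3964 TPM in SW620 tumours and 2421, 1986 and 1981 TPM in SW480 tumours, and the actin-binding genes CALD1 and TAGLN differed by 1.62 and 1.14. Lower in SW620 were the membrane protein EMP3 (134, 128 and 116 TPM in SW620 tumours and 466, 509.5 and 599 TPM in SW480 tumours, difference -2.05), the matrix protein SPARC (-3.30) and the smooth muscle actin ACTA2 (-1.43). SNAI1 (0.36), ZEB1 (0.36) and FN1 (0.35) were not called. The 3 lower genes became 5 without SW480 replicate 3 and with TPM rescaled to nuclear protein-coding genes.

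Of 21 matrix proteases, urokinase system genes and inhibitors tested, 10 were lower in SW620 and 2 higher (47.6% and 9.52%), and CST1 was the lowest of them. The shares over all genes were 12.1% and 10.6%. PLAUR, the urokinase receptor, had 18.1, 16.6 and 19.5 TPM in SW620 tumours and 101, 149.7 and 102 TPM in SW480 tumours (difference -2.61), with no overlap between the lines. PLAT, a plasminogen activator, MMP9, MMP11, MMP14, TIMP3 and the cathepsins CTSB and CTSD were lower too, with differences of -3.32 to -0.85. MMP7, matrilysin, the Wnt-induced protease of intestinal tumours, was higher, with 20.01, 15.5 and 18.5 TPM in SW620 tumours and 0.96, 0.43 and 0.4 TPM in SW480 tumours and a difference of 3.58 (SE 0.27, limma adjusted p 0.000163). SERPINE2 was also higher (1.99). The 2 higher genes became 1 when any SW620 replicate was left out. MMP7 then no longer reached 1 TPM in 3 libraries and was not tested.

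Attachment genes were split, 9 lower and 5 higher of 24 tested (37.5% and 20.8%), beside 12.1% and 10.6% of all genes. LAMA3 and LAMB3 encode subunits of laminin-332, the anchor of epithelial cells to their basement membrane, and both were lower in SW620. LAMB3 had 23.6, 24.9 and 24.3 TPM in SW620 tumours and 107, 112 and 70.1 TPM in SW480 tumours, and the differences were -1.92 for LAMB3 and -1.97 for LAMA3. Receptors for this laminin were also lower, ITGA3 with 5.12, 8.91 and 7.92 TPM in SW620 tumours and 36.5, 63.9 and 46.9 TPM in SW480 tumours (difference -2.58) and ITGB4 (-1.18), while ITGA6 (-0.61) was not called. ITGB5, LAMA5, AGRN and COL4A2 were lower, with differences of -1.81 to -1.04. TNC, the matrix protein tenascin, was higher, with 68.2, 64.8 and 97.8 TPM in SW620 tumours and 10.4, 7.88 and 6.4 TPM in SW480 tumours (difference 3.08), as were THBS1 (3.23), CTGF (1.80), ITGB1 (1.11) and LAMB1 (0.73).

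Growth factor receptors differed in both directions. MET, the receptor of hepatocyte growth factor (ENSG00000105976.14, chromosome 7, 116672390 to 116798386), had 94.5, 94.98 and 76.6 TPM in SW620 and 8.85, 5.93 and 4.74 TPM in SW480 tumours, a difference of 3.61 (SE 0.24, limma adjusted p 9.64e-05). EGFR (ENSG00000146648.17, chromosome 7, 55019021 to 55211628) had 0.63, 0.72 and 0.55 TPM in SW620 and 13.9, 19.3 and 11.1 TPM in SW480 tumours, a difference of -3.24 (SE 0.28, limma adjusted p 0.000303). No library of one line entered the range of the other in either gene. Ligands of EGFR were higher in SW620, where the receptor was low: EREG had 27.9, 23.5 and 25.96 TPM in SW620 tumours and 1.7, 4.09 and 0.37 TPM in SW480 tumours, and AREG and HBEGF differed by 3.71 and 1.10, while TGFA was lower (-1.46). FGFR4 had 51.4, 63.1 and 51.95 TPM in SW620 tumours and 12.2, 13.5 and 9.34 TPM in SW480 tumours (difference 2.17), and VEGFA and FGFBP1 were higher too. ERBB2, FGF19 and NRP1 were lower, with differences of -2.23 to -0.81. In all, 7 were higher and 5 lower of 21 tested (33.3% and 23.8%), beside 10.6% and 12.1% of all genes. The counts were 4 higher without SW620 replicate 2 or 3, and 3 lower without SW480 replicate 2 or SW620 replicate 2.

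CXC chemokines that draw neutrophils, a cluster on chromosome 4, were higher in SW620. With CXCL6 and CXCL8 came CXCL3 (93.8, 66.97 and 90.6 TPM in SW620 tumours and 6.09, 3.2 and 2.95 TPM in SW480 tumours, difference 4.10) and CXCL1 (40.8, 32.1 and 47.4 TPM in SW620 tumours and 4.27, 0.99 and 0.84 TPM in SW480 tumours, difference 3.92). CXCL2 was not called (difference 1.35), and CXCL1, CXCL2 and CXCL3 are similar enough that shared reads may be split between them. CCL20, which draws dendritic and T cells, had 82.96, 54.9 and 74.2 TPM in SW620 tumours and 6.0, 0.88 and 2.28 TPM in SW480 tumours (difference 4.33). IL20RA, an interleukin receptor chain, had 43.5, 41.4 and 38.5 TPM in SW620 tumours and 2.1, 3.65 and 2.37 TPM in SW480 tumours (difference 3.53). CXCR4, the receptor of CXCL12 and a gene widely linked to homing of tumour cells, was lower, with 5.26, 3.66 and 4.43 TPM in SW620 tumours and 116, 129 and 101 TPM in SW480 tumours and a difference of -4.42 (SE 0.19, limma adjusted p 1.6e-05). Every SW480 library was above 100 TPM and every SW620 library under 6 TPM. CSF2 and CXCL16 were lower as well (-3.81 and -2.62). The list held 6 higher and 3 lower genes of 17 tested (35.3% and 17.6%), beside 10.6% and 12.1% of all genes. Another 8 were too low to test, among them IL6 and IL1B.

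Interferon-induced and HLA class I genes had 16 of 28 tested lower in SW620 (57.1%), against 2 higher (7.14%). The shares over all genes were 12.1% and 10.6%. With median-ratio scaling 12 were lower, a smaller share than that of proteases or keratins under that scaling (10 of 21 and 8 of 17), and with TPM rescaled to nuclear protein-coding genes 17. ISG20, a nuclease, had 17.3, 18.8 and 20.8 TPM in SW620 tumours and 90.5, 98.3 and 124 TPM in SW480 tumours (difference -2.39), and BST2, tetherin, had 11.1, 10.3 and 8.23 TPM in SW620 tumours and 179, 55.8 and 132 TPM in SW480 tumours (difference -3.35). IFITM3 had 506, 677 and 529 TPM in SW620 tumours and 2269.9, 1845 and 2813 TPM in SW480 tumours, and IFITM2 differed by -1.51, both less than IFITM1. IFI27, IFI35, IRF1 and IRF7 were lower, with differences of -3.94 to -0.76. Genes of antigen presentation were among them: HLA-B had 141, 66.9 and 85.4 TPM in SW620 tumours and 342, 324 and 491 TPM in SW480 tumours, the immunoproteasome subunit PSMB9 had 29.1, 31.4 and 29.6 TPM in SW620 tumours and 126, 89.1 and 119 TPM in SW480 tumours, and HLA-C, HLA-E, TAP1, TAPBP and PSMB8 were lower, with differences of -1.23 to -0.65. The interferon genes did not move as a block, since ISG15 (0.02), IFI6 (0.04), MX1 (-0.53) and B2M (-0.30) were not called. IFIT2 (1.18) and OAS1 (1.09) were higher, and these 2 became 0 without SW620 replicate 1 or 2 and 1 without any of the other 4 libraries. HLA genes are highly variable, so reads of these lines may map to the reference unevenly.

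Of 23 glycolysis genes, 8 were higher in SW620 (34.8%) and 0 lower by limma (11 and 2 at an unadjusted p of 0.05). The shares over all genes were 10.6% and 12.1%. With TPM rescaled to nuclear protein-coding genes or without SW480 replicate 3, 2 were called lower. SLC16A3, the lactate exporter MCT4, had 71.4, 97.9 and 78.04 TPM in SW620 tumours and 21.6, 25.6 and 23.6 TPM in SW480 tumours (difference 1.75). LDHB had 1278, 1135 and 1039 TPM in SW620 tumours and 642, 488 and 614 TPM in SW480 tumours, and ENO1 had 3175, 3326 and 3086 TPM in SW620 tumours and 2184, 1939 and 1536 TPM in SW480 tumours, both without overlap. PFKFB3, PGK1, PGAM1, PFKP and TPI1 were higher by 0.64 to 1.27. The glucose transporters SLC2A1 (-0.73) and SLC2A3 (-0.62) were not called. The count of 8 became 5, 4 and 4 without SW620 replicate 1, 2 and 3.

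Of 25 nuclear genes of oxidative phosphorylation, 13 were higher (52.0%) and 0 lower by limma (16 and 1 at an unadjusted p of 0.05). The shares over all genes were 10.6% and 12.1%. NDUFB8, of complex I, had 429, 436 and 356 TPM in SW620 tumours and 177, 156 and 185 TPM in SW480 tumours (difference 1.23), SDHB, of complex II, had 196, 185 and 195 TPM in SW620 tumours and 129, 118 and 105 TPM in SW480 tumours (difference 0.71), and UQCRB, of complex III, had 134, 103 and 103 TPM in SW620 tumours and 65.3, 53.4 and 58.3 TPM in SW480 tumours (difference 0.93). The differences were small, 0.50 to 1.23 among the 13. COX4I1 (-0.03), COX5B (-0.29) and UQCRC1 (-0.14) were not called. Protein-coding genes of the mitochondrial genome are not in this list. They held 3.75% to 4.03% of TPM in SW620 and 4.17% to 4.93% in SW480 libraries. In dnLEF1 tumours they held 4.87% to 6.06% in SW620 and 3.7% to 5.22% in SW480 libraries. The scaling and the libraries bear on this list: 11 were higher with median-ratio scaling and 10 with TPM rescaled to nuclear protein-coding genes, where 1 was lower, and 5, 6 or 7 were higher without SW620 replicate 1, 2 or 3. In dnLEF1 tumours 5 of the 25 were higher and 1 lower. The share of nuclear protein-coding transcripts was higher in every SW620 library. The rescaled counts of 10 and 1 are those with this share made equal between libraries. What made the share higher was not tested.

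**Figure D4:**
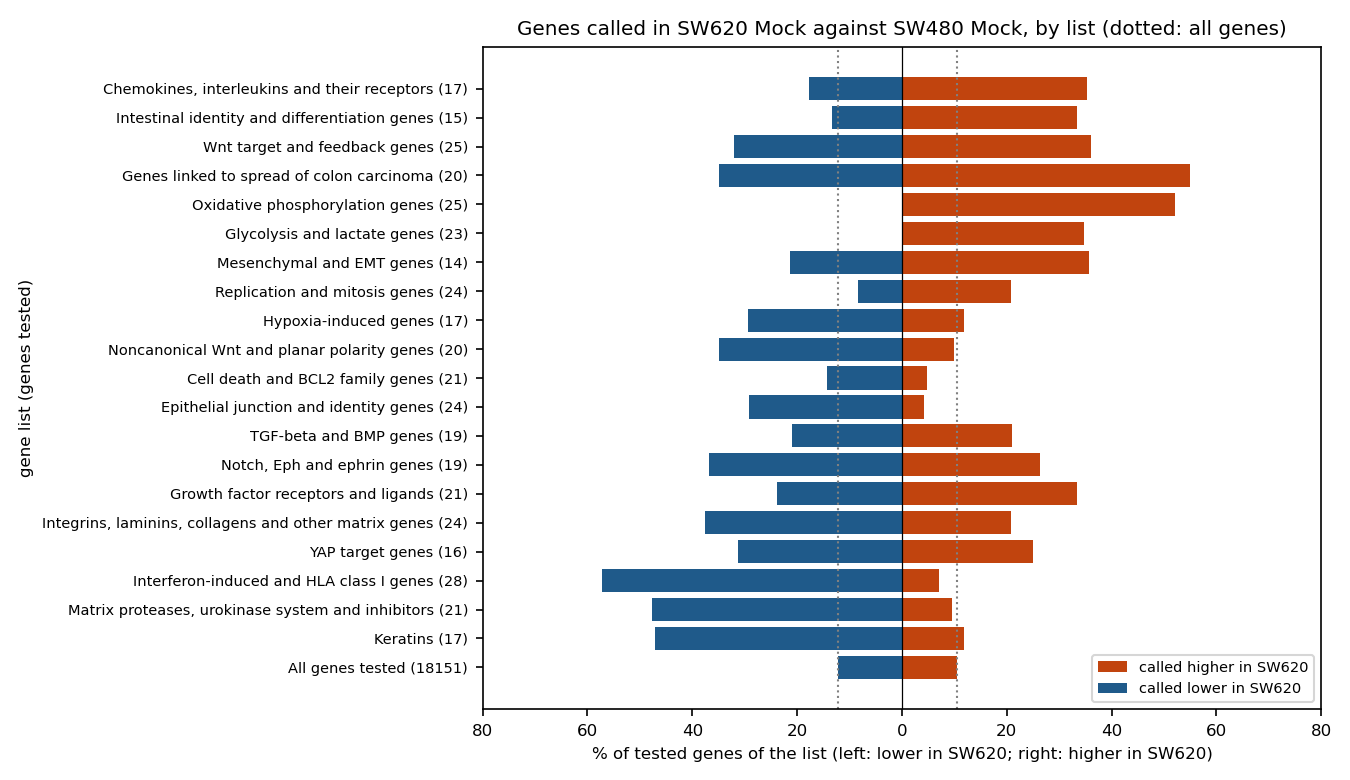
Share of the tested members of each gene list called lower (left) and higher (right) in SW620 Mock against SW480 Mock tumours; numbers in brackets are genes tested and the dotted lines are the shares over all genes, 12.1% and 10.6%. Interferon-induced and HLA class I genes have the longest bar on the lower side (57.1%), and nuclear oxidative phosphorylation genes and glycolysis genes have none there.

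Replication and mitosis genes had differences of -1.1 to 0.965. Of 24 tested, 5 were higher in SW620 and 2 lower (20.8% and 8.33%), beside 10.6% and 12.1% of all genes. The median lay 0.09 above that of all genes. MCM3, of the replicative helicase, had 157, 185 and 176 TPM in SW620 tumours and 97.6, 86.5 and 79.97 TPM in SW480 tumours (difference 0.96), and CDK1, the mitotic kinase, had 131, 106 and 109 TPM in SW620 tumours and 64.1, 65.6 and 49.6 TPM in SW480 tumours (difference 0.94). CCNB1, PCNA and TYMS were also higher. RRM2, of ribonucleotide reductase, and E2F1 were lower (-1.10 and -0.91). The lower genes were 0 without SW480 replicate 2 or SW620 replicate 1 or 2, 1 without SW480 replicate 1 or SW620 replicate 3, and 4 without SW480 replicate 3. The 5 higher became 3 without SW620 replicate 1 or 3. MKI67 stood at 18.1, 16.5 and 16.3 TPM in SW620 tumours and 27.1, 26.6 and 21.1 TPM in SW480 tumours and was not called (difference -0.52).

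Among 17 hypoxia-induced genes, 5 were lower in SW620 and 2 higher (29.4% and 11.8%), beside 12.1% and 10.6% of all genes. The higher share was thus near that of all genes, and the median of the list lay 0.02 above theirs. P4HA2, a collagen hydroxylase, had 18.9, 32.5 and 26.6 TPM in SW620 tumours and 160.3, 141 and 109 TPM in SW480 tumours (difference -2.37), ANGPTL4, an inhibitor of lipoprotein lipase, had 0.68, 1.26 and 1.18 TPM in SW620 tumours and 14.3, 9.94 and 17.4 TPM in SW480 tumours (difference -2.85), and ADM, a vasodilator peptide, had 15.04, 16.03 and 15.1 TPM in SW620 tumours and 62.3, 134 and 66.4 TPM in SW480 tumours (difference -2.35). NDRG1 and CA12 were lower (-1.92 and -1.20), VEGFA and P4HA1 higher (1.46 and 1.29), and 1 of those 2 was called without SW480 replicate 1 or 3 or SW620 replicate 2 or 3. CA9, a widely used hypoxia marker, had 161, 240.4 and 214 TPM in SW620 tumours and 73.9, 205 and 87.2 TPM in SW480 tumours and was not called. SW480 replicate 2 was well above the other libraries of its group there and overlapped with SW620.

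Of 21 cell death genes, 1 was higher and 3 lower (4.76% and 14.3%), near the 10.6% and 12.1% of all genes. FAS, the death receptor, had 1.73, 0.47 and 1.57 TPM in SW620 tumours and 10.5, 16.8 and 11.5 TPM in SW480 tumours (difference -2.65), beside the lower TNFRSF6B, its ligand's decoy. BCL2L15, a BCL2-like gene, had 20.1, 22.1 and 19.6 TPM in SW620 tumours and 65.6, 53.6 and 62.6 TPM in SW480 tumours, and BBC3, a p53-induced activator of cell death, had 0.25, 0.65 and 0.6 TPM in SW620 tumours and 2.6, 1.81 and 2.12 TPM in SW480 tumours. BBC3 was not called with a pseudocount of 0.1, with no filter on low values, with a replicate block or without any SW620 replicate. As deposited, its limma adjusted p was 0.0341. PMAIP1, another BH3-only gene, was higher, with 90.1, 63.2 and 69.01 TPM in SW620 tumours and 21.4, 25.97 and 14.9 TPM in SW480 tumours (difference 1.80). BCL2L1 (-0.32), MCL1 (-0.15) and BAX (-0.31) were not called.

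Genes of TGF-beta and BMP signalling went 4 each way of 19 tested (21.1% each), beside 10.6% higher and 12.1% lower of all genes. TGFBR2, the ligand-binding receptor, had 13.7, 13.6 and 15.2 TPM in SW620 tumours and 1.58, 2.21 and 1.37 TPM in SW480 tumours (difference 2.49), while TGFBR1, its partner, was lower (-2.01). ID1, a target of BMP signals, had 122, 110.05 and 132 TPM in SW620 tumours and 13.3, 23.5 and 19.2 TPM in SW480 tumours (difference 2.67), along with BMP4 and SMAD6 (1.00). TGFBI, a matrix protein induced by TGF-beta, had 48.8, 52.95 and 59.6 TPM in SW620 tumours and 194, 219 and 137 TPM in SW480 tumours, and BMP7 had 10.3, 16.7 and 17.4 TPM in SW620 tumours and 57.4, 60.5 and 49.1 TPM in SW480 tumours, both lower in SW620, as was the inhibitor SMAD7 (-1.89). SMAD4 stood at 1.23, 0.54 and 1.22 TPM in SW620 tumours and 1.66, 1.21 and 0.04 TPM in SW480 tumours, low in both lines, and was not called.

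The YAP list holds target genes and also the pathway genes YAP1, WWTR1, TEAD1 and TEAD4. It was split too, 4 higher and 5 lower of 16 tested (25.0% and 31.2%), beside 10.6% and 12.1% of all genes. ANKRD1, a sensitive YAP target, had 0.35, 0.21 and 0.43 TPM in SW620 tumours and 19.2, 14.7 and 13.1 TPM in SW480 tumours (difference -3.63), and WWTR1, which encodes the coactivator TAZ, had 4.61, 4.7 and 9.05 TPM in SW620 tumours and 28.7, 31.7 and 31.8 TPM in SW480 tumours (difference -2.21). CTGF, AJUBA, PTPN14 and TEAD4 were higher, by 1.33 to 1.80. YAP1 itself was not called (difference 0.33). The 5 lower became 3 without any single library but SW480 replicate 3. Without any SW480 replicate ANKRD1 no longer reached 1 TPM in 3 libraries and was not tested.

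Of 19 Notch, Eph and ephrin genes, 7 were lower in SW620 and 5 higher (36.8% and 26.3%), beside 12.1% and 10.6% of all genes. The ligands EFNB2 (20.2, 24.3 and 26.1 TPM in SW620 tumours and 1.48, 1.09 and 0.75 TPM in SW480 tumours, difference 3.55) and JAG1 (11.6, 15.6 and 19.9 TPM in SW620 tumours and 2.49, 3.57 and 2.17 TPM in SW480 tumours, difference 2.14) were higher with MFNG, DLL4 and EPHA2. EFNB1 (1.13, 1.95 and 1.24 TPM in SW620 tumours and 11.3, 13.4 and 8.66 TPM in SW480 tumours, difference -2.31), NOTCH2 (-2.80), NOTCH1 (-1.05) and the receptors EPHA1, EPHA4, EPHB4 and EPHB6 were lower. The targets HES1 (-0.50) and HEY1 (-0.26) were not called. The 5 higher became 3 without any SW620 replicate, and the 7 lower became 4 without SW620 replicate 1 or 2.

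Of 20 genes that earlier work has linked to spread of colon carcinoma, 11 were higher in SW620 and 7 lower (55.0% and 35.0%), 18 of 20 in all, beside 22.7% of all genes. The list was chosen with earlier results of these data known. TM4SF1, a tetraspanin-like surface protein, had 354, 325 and 334 TPM in SW620 tumours and 53.3, 55.01 and 33.4 TPM in SW480 tumours (difference 2.85), and CD24, a surface adhesion molecule, had 67.05, 43.2 and 64.2 TPM in SW620 tumours and 6.22, 3.42 and 3.57 TPM in SW480 tumours (difference 3.46). SPON2, a matrix protein, had 33.4, 27.9 and 32.5 TPM in SW620 tumours and 2.81, 2.4 and 2.8 TPM in SW480 tumours (difference 3.13). MACC1, a regulator of MET expression, had 29.4, 25.6 and 17.4 TPM in SW620 tumours and 1.8, 1.03 and 0.23 TPM in SW480 tumours (difference 3.69), and PROM1, the surface antigen CD133, had 15.2, 17.6 and 22.6 TPM in SW620 tumours and 0.8, 1.53 and 0.1 TPM in SW480 tumours (difference 3.49). FSCN1, ALCAM, S100A4, CTTN, EZR and NME1 completed the higher genes. The lower genes do not share 1 role: TSPAN1 had 12.3, 15.1 and 13.1 TPM in SW620 tumours and 84.7, 125 and 125 TPM in SW480 tumours (difference -2.94), and the tetraspanins CD9 and CD82, known as suppressors of spread, and TIAM1, PTP4A3, RHOC and CDCP1, known to promote it, were lower, with differences of -1.64 to -0.65. The 7 lower became 4 when any SW620 replicate was left out.

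Of 22 cancer-testis antigen genes, 3 could be tested. MAGEB2 was at 2.04, 1.59 and 3.51 TPM in SW620 tumours and listed at 0 in the 3 SW480 libraries. SPANXB1 was at 0, 0 and 1.29 TPM in SW620 tumours and 4.03, 4.73 and 8.29 TPM in SW480 tumours and lower in SW620, and PRAME was not called (difference -0.21). Without any SW620 replicate MAGEB2 no longer reached 1 TPM in 3 libraries and was not tested.

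In the dnLEF1 libraries, where 10.9% of all genes were higher and 28.6% lower in SW620, several of the lists gave these counts. Of Wnt targets 11 were higher and 8 lower of 25 tested, LEF1 among the lower ones, though transcripts of the construct and of the gene itself cannot be told apart there. Of interferon and HLA class I genes 20 of 29 were lower, of keratins 10 of 15 lower and 1 higher, of proteases 11 of 20 lower and 2 higher, and of chemokines 6 higher and 4 lower of 15. Hypoxia-induced genes had 11 of 16 lower there, and replication and mitosis genes 8 higher and 1 lower of 24. Junction genes had 14 of 24 lower and 2 higher, and glycolysis genes 4 each way of 23. Mesenchymal genes had 3 higher and 6 lower of 15 there, against 5 and 3 of 14 in Mock tumours. Growth factor receptors and ligands had 6 higher and 8 lower of 21, against 7 and 5 in Mock tumours. Genes linked to spread of colon carcinoma had 8 higher and 7 lower of 19. The median of that list lay 0.045 above that of all genes there, against 0.728 in Mock tumours. CXCR4 again lay far apart, with 5.44, 4.6 and 6.55 TPM in SW620 dnLEF1 and 164, 113 and 129 TPM in SW480 dnLEF1 tumours, and CLDN7 had 7.68, 5.95 and 4.45 TPM in SW620 dnLEF1 and 307, 251 and 346 TPM in SW480 dnLEF1 tumours. AXIN2 had 33.98, 21.96 and 19.2 TPM in SW620 dnLEF1 and 32.5, 25.7 and 29.8 TPM in SW480 dnLEF1 tumours, where the groups overlapped, and KRT7 had 118, 87.7 and 94.5 TPM in SW620 dnLEF1 and 54.7, 99.5 and 103 TPM in SW480 dnLEF1 tumours, also with overlap.

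The differences were not spread evenly over the chromosomes. On chromosome 10, 141 of 664 tested genes were higher in SW620 and 53 lower (21.2% and 7.98%), and its median lay 0.37 above that of all genes. The median of chromosome 13 lay 0.27 under it, with 34 of 305 genes higher and 73 lower. Chromosomes 6 and 16 were higher (0.20 and 0.18), and 3 and 19 lower (-0.22 and -0.19). In dnLEF1 tumours the medians were 0.39 for chromosome 10, -0.14 for 13, 0.24 for 6, 0.23 for 16, -0.20 for 3 and -0.22 for 19, each relative to all genes of that contrast. With each SW620 library set against the SW480 mean, chromosome 10 lay at 0.29 to 0.42 and chromosome 13 at -0.33 to -0.28, and with median-ratio scaling they lay at 0.37 and -0.28. Gene dosage was not measured.

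Genes with a mean of 5 TPM or more were also grouped by position, 10 Mb at a time, keeping windows of 10 or more such genes. This division was added after the data were seen, and stretches within some arms stood apart. Between 60 and 70 Mb on chromosome 16, 52 of 81 genes were higher and 1 lower, with a median 1.27 above that of the expressed genes, and between 70 and 80 Mb 33 of 46 were higher, with a median of 1.37. The neighbouring window from 80 to 90 Mb had a median of -0.28. NAE1, which activates NEDD8, had 379, 289 and 307 TPM in SW620 tumours and 73.4, 72.7 and 61.4 TPM in SW480 tumours (difference 2.21), KARS, the lysyl-tRNA synthetase, had 550.5, 532 and 488 TPM in SW620 tumours and 138, 113 and 96.6 TPM in SW480 tumours (difference 2.18), and PSMD7, of the proteasome, had 506, 518 and 444 TPM in SW620 tumours and 189, 151 and 159 TPM in SW480 tumours (difference 1.55). These genes were picked after their values were seen, as abundant members of housekeeping function. CDH3, in the same stretch, was the 1 lower gene there, and CDH1 beside it was not called. On chromosome 10, from 50 to 60 Mb, 11 of 12 genes were higher (median 1.47), among them TFAM, of mitochondrial DNA upkeep (1.56), and ZWINT, of the kinetochore (1.21). From 60 to 70 Mb, where CDK1 lies, 15 of 23 were higher (median 0.96).

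The 2 lowest windows were on chromosome 13. From 20 to 30 Mb all 27 genes lay under the median of the expressed genes, 14 were lower (median -0.998), and from 30 to 40 Mb all 18 did, with 11 lower (median -0.84). CDX2 lies in the first of these windows, where its difference of -3.83 was well beyond the median, with POMP, of proteasome assembly (-1.01), and GJB2, a connexin (-3.33). HMGB1, a chromatin protein (-0.67), lies in the second. From 40 to 50 Mb 15 of 41 genes were lower, while LCP1 in that window was among the highest of all. Farther along the same chromosome the windows from 70 to 80 Mb, with KLF5, and from 100 to 110 Mb, with EFNB2, were higher (0.90 and 0.82). On chromosome 7 from 100 to 110 Mb 37 of 87 genes were lower and 1 higher (median -0.72). Of 278 windows with 10634 genes, 248 had the same sign in the dnLEF1 tumours, where the chromosome 16 windows had medians of 1.11 and 1.24 and the chromosome 13 windows -0.75 and -0.64.

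**Figure D5:**
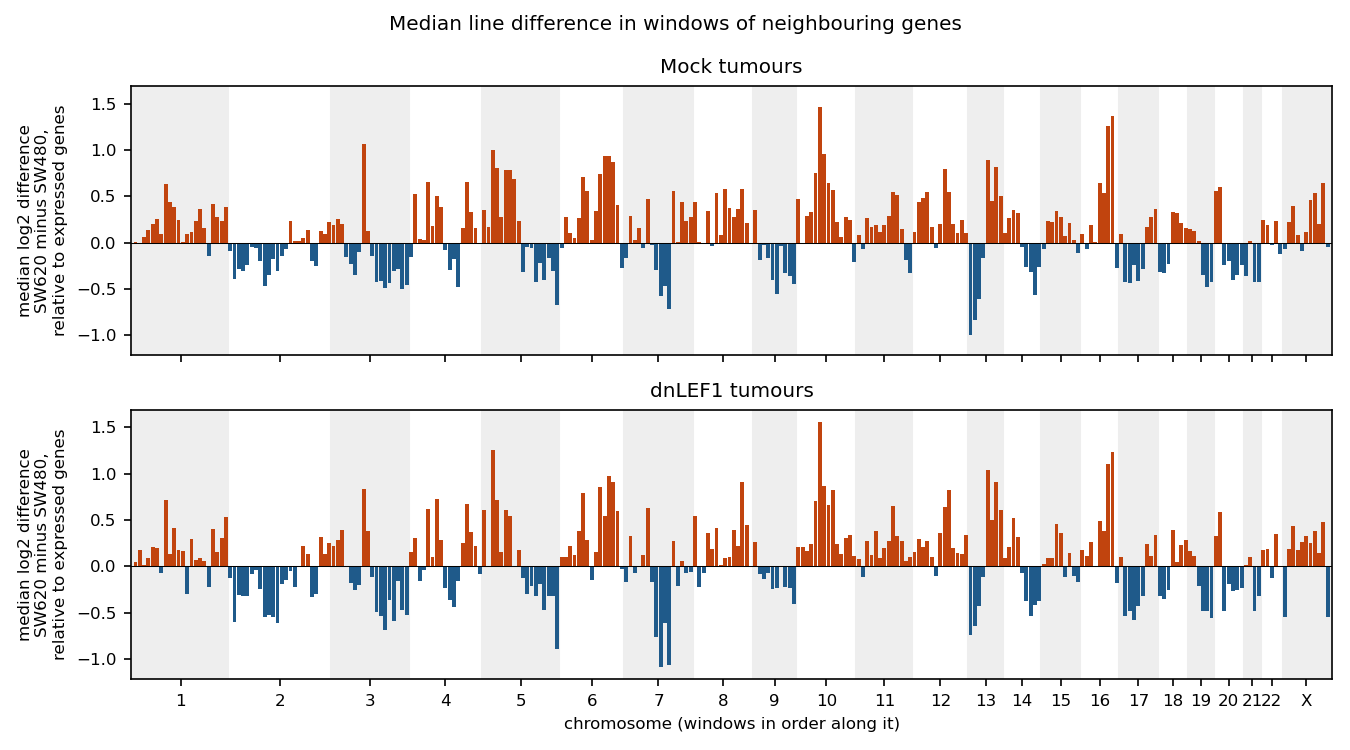
Median log2 difference SW620 minus SW480 in each 10 Mb window, relative to the expressed genes, for Mock (top) and dnLEF1 tumours (bottom), with windows in order along each chromosome; windows with under 10 genes are left out. The tallest bars, on chromosomes 10 and 16, and the deepest, on chromosomes 13 and 7, recur in both rows.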

How the data were processed

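RNA was measured in 18 xenografts of 6 groups of 3, by Smart-seq2 libraries from frozen caecum tissue per the labels' protocols. The deposited values are TPM per human gene, summing to 1000000 per library. The submitters' processing notes name Trimmomatic 0.35, Bowtie 1.2 and RSEM 1.2.31 with the builds hg38 and mm10. How human and mouse reads were separated, whether counting used strand, and the read depth are not given in the sources used here. TPM were used as deposited, at log2(TPM + 1), with genes of at least 1 TPM in at least 3 of the 6 libraries. The 45 second copies of pseudoautosomal genes were left out. Of 58336 genes, 58216 were found in GENCODE release 29 (GRCh38) by identifier, and 531 of 532 list symbols matched (IGF2 did not).

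The fit was limma 3.58.1 (R 4.3.3) with an intensity trend on the 6 libraries, no covariate, and Benjamini-Hochberg adjustment over all genes tested at 0.05. Named genes are the 12 largest called differences each way (protein-coding, a mean of at least 5 TPM in the higher line, no overlap), up to 4 called members of each list with the smallest p, AXIN2, LEF1, LGR5, CDX2, CDH1 and VIM, and for promoters the 2 highest genes on in 1 line. Other list members complete the counts, and genes from outside the rule were chosen after their values were seen. The 21 gene lists, 2 marker lists and members were chosen with earlier results of these data known. Alternatives were another pseudocount, no filter, other scalings, array weights, more groups in the fit, a replicate block and leaving out each library. No library pair held identical values. Cas9 and LRP6KO tumours entered levels and 1 alternative fit only, and a few list members are counted but not reported here by name. The PBS caecum and mouse genes were not used here.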

Additional observations from a re-analysis of the deposited data

Results flagged for a closer look

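In 10 genes named here the difference between the lines was not the same in Mock as in dnLEF1 tumours, by the limma test of the difference itself. Over all genes 43 of 21244 passed that test (0.202%), and values below are the Mock difference minus the dnLEF1 difference, in log2 units. SMOC2, a matricellular Wnt target, had 3.85 (limma adjusted p 0.00206), with the lines apart in Mock and overlapping in dnLEF1 tumours. KRT75, a hair follicle keratin, had -4.63 (limma adjusted p 0.000695), with 0.39, 0.44 and 0.57 TPM in SW620 tumours and 243, 175 and 170.5 TPM in SW480 tumours, beside 0.31, 0.1 and 0.46 TPM in SW620 dnLEF1 and 9.35, 4.62 and 4.58 TPM in SW480 dnLEF1 tumours. TMX4, a thioredoxin-related membrane protein, had 2.84 (limma adjusted p 0.00225), TXNIP, an inhibitor of thioredoxin, had 2.47 (limma adjusted p 0.00257), and LHFPL6 had -2.72 (limma adjusted p 0.0423). These 3 were called in opposite directions in the 2 pairs. CA9, the hypoxia-induced carbonic anhydrase, had 2.42 (limma adjusted p 0.0481), with 160.04, 131 and 130.3 TPM in SW620 dnLEF1 and 451, 382 and 394 TPM in SW480 dnLEF1 tumours. ANKRD37, also hypoxia-induced, had 1.97 (limma adjusted p 0.0455). ELF3, an epithelial transcription factor, had 1.39 (limma adjusted p 0.0423), being called in dnLEF1 and not in Mock tumours. ID2, a target of BMP signals, had -1.60 (limma adjusted p 0.0329), and IFITM2 had -1.29 (limma adjusted p 0.0423).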

How the results depend on the processing

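Of the 104 named genes 103 were called. All 104 were tested in 8 alternatives, 95 without an SW480 library and 97 without an SW620 library, the others falling under the filter. Among those tested 0 reversed, and 5 lost the call in at least 1 alternative: BBC3, CD14, RRM2, VIL1 and NDUFS3. The count of calls was 2729 with no filter on low values, 3829 with a pseudocount of 0.1, 4159 with median-ratio scaling, 4333 with TPM rescaled to nuclear protein-coding genes (a scaling chosen after seeing the data), 4404 with array weights, 4777 with the dnLEF1 groups and 5492 with all 6 groups in the fit. Without 1 library it was 2210 to 3589 in Mock and 4248 to 5902 in dnLEF1 tumours. The cause was not tested. Genes on in 1 line numbered 10 when the other line had to lie under 0.1 TPM and 83 under 1 TPM. Same-numbered libraries of the lines had correlations of deviations of 0.103, 0.028 and -0.016, and differently numbered ones -0.09 to 0.07. Whether the numbers pair the libraries was not tested. With the replicate block 3295 genes were called in Mock and 6505 in dnLEF1 tumours. TPM give no depth, so the precision of low genes could not be stated.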

Other observations

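Some gene families had calls mostly on 1 side. They were chosen after the data were seen, and 10.6% of all genes were higher and 12.1% lower in SW620. Of HLA class II genes with CD74 and CIITA, which present peptides to helper T cells, 6 of 10 tested were lower in SW620. Of cystatins, inhibitors of cysteine proteases, 7 of 8 were lower, and CST1, CST2 and CST4 are near-identical copies. Of kallikreins, secreted serine proteases, 5 of 8 were lower, led by KLK7 (0.68, 0.52 and 0.27 TPM in SW620 tumours and 56.6, 83.6 and 66.7 TPM in SW480 tumours, difference -5.54) and KLK8 (0, 0 and 0.76 TPM in SW620 tumours and 9.96, 19.97 and 42.5 TPM in SW480 tumours, difference -4.16). The aldo-keto reductases went the other way, with 4 of 7 higher, AKR1C1 to AKR1C4. S100 genes were mixed, 3 higher and 6 lower of 13, as were metallothioneins, 2 higher and 4 lower of 8. Core histones, 4 higher and 5 lower of 47, lay near the share of all genes.

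The 10 genes called in both pairs of groups with opposite directions were AP005018.2, LAT2, LHFPL6, LINC02081, MT-ATP8, RN7SKP16, RN7SL546P, SYK, TMX4 and TXNIP. TXNIP averaged 112 TPM in SW620 Mock and 64.7 TPM in SW480 Mock, and 75.2 TPM in SW620 dnLEF1 and 249 TPM in SW480 dnLEF1. TMX4 averaged 32.1 TPM in SW620 Mock and 11.7 TPM in SW480 Mock, and 9.71 TPM in SW620 dnLEF1 and 28.9 TPM in SW480 dnLEF1. SYK, a kinase known from B cells, averaged 50.4 TPM in SW620 Mock and 105 TPM in SW480 Mock, and 41.3 TPM in SW620 dnLEF1 and 18.5 TPM in SW480 dnLEF1. Several of the 10 are short or noncoding RNAs.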
